A study of Mus musculus with 4 samples.

Results

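The Steap metalloreductases are a family of 4 genes in the mouse, Steap1, Steap2, Steap3 and Steap4, and they were taken by symbol from the deposited expression table, where they fill 4 of 23242 rows. RNA was sequenced from ventral and dorsal prostate lobes of 4 mice on the FVB background. The controls were 2 wild-type mice, numbered 27 and 28 in the labels and given there as negative for ERG. The other group was 2 TMPRSS2:ERG homozygotes, numbered 26 and 29. They carry a bacterial artificial chromosome with the TMPRSS2 locus into which human ERG exons were placed behind a floxed GFP, and Cre protein injected into embryos removed the GFP. The homozygotes descend from 1 sub-line of 1 transgenic line, so the transgene cannot be told apart from where it integrated or from other features of that sub-line. The age of the mice is not given in the labels, and the human ERG transcript was not analysed here.

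Steap proteins are multi-pass membrane proteins that bind heme and pass electrons across the membrane to ferric and cupric ions. Steap2, Steap3 and Steap4 carry an amino-terminal oxidoreductase domain that takes the electrons from NADPH, and Steap1 lacks that domain. The family is known in the prostate because STEAP1 and STEAP2 are abundant surface proteins of human prostate epithelium and prostate cancer. Steap3 is the ferric reductase of transferrin-bearing endosomes in red cell precursors. Steap4 is an inflammation- and nutrient-responsive member that has been studied in adipose tissue among others. The missing domain shows in the gene models of GENCODE M21: the longest coding sequence of Steap1 has 339 codons, against 489 for Steap2, 526 for Steap3 and 470 for Steap4.

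Steap1, Steap2 and Steap4 lie on mouse chromosome 5 and Steap3 on chromosome 1 (build mm10). In the deposited coordinates, Steap2 spans 5664831 to 5694568 and Steap1 spans 5736322 to 5749317, both on the reverse strand and 41.8 kb apart. Steap4 spans 7960472 to 7982213 on the forward strand, 2211 kb beyond Steap1. Steap3 spans 120226416 to 120271082 on the reverse strand of chromosome 1. No other row of the table overlaps any of the 4 genes.

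Because Steap4 and Steap1 lay at opposite ends of the family's differences, the bases in front of their start sites are shown, as RefSeq gives them on GRCm38.p6. Each stretch stops short of the earliest start annotated in RefSeq or GENCODE and reads 5′ to 3′ on the gene's own strand. Capitals mark matches to an NF-kB consensus, to the STAT spacing TTCNNNGAA and to the C/EBP core TTGCNNAA, searched on both strands. The Steap4 stretch is chr5:7960222-7960456 and the Steap1 stretch is chr5:5749327-5749567.
Steap4: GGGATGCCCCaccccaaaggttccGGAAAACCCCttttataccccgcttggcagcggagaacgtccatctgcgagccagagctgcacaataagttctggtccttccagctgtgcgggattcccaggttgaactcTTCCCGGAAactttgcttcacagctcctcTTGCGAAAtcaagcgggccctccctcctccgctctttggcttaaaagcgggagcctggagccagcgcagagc
Steap1: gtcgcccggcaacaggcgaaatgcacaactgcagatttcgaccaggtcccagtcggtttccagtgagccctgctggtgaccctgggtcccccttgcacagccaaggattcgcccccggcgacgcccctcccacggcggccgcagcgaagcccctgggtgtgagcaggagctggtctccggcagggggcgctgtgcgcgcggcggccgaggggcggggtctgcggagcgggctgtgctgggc

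The window of 250 bases before the Steap4 start held 2 NF-kB matches, 250 and 226 bases upstream, both on the opposite strand. It held 1 STAT match at 116 bases and 1 C/EBP match at 87 bases. Among all 32851 RefSeq windows of that length, 3.90% held an NF-kB match, 7.02% a STAT match and 9.56% a C/EBP match. The Steap1 window, with a GC content of 70.8% against 58.4% for Steap4, held none of these. Each of these motifs also occurred in a window of a member that was not called: 1 of the 4 windows of Steap3 held a C/EBP and an NF-kB match, and among the 3 windows of Steap2 1 held a STAT match and another an NF-kB match. ERG binds sequences with the core GGAA, which 93.4% of all windows hold. The longer ETS forms CGGAAG or AGGAAG, found in 39.2% of windows, occurred in each of the 4 Steap3 windows and in none of the Steap1, Steap2 or Steap4 windows. The androgen receptor half-site AGAACA, found in 16.1% of windows, was in none of the 9 Steap windows. Motif matches describe letters only, and binding was not measured.

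Expression values were read as FPKM, fragments per kilobase of transcript adjusted for library size, so levels can be set side by side between genes. Values below were scaled between libraries by a median of ratios, with factors between 0.921 and 1.04. Between 11547 and 11858 genes reached 1 FPKM in a library. Of all rows, 11762 averaged at least 1 scaled FPKM and were tested, among them all 4 Steap genes, Steap2 only narrowly. Homozygotes were compared with wild types by limma on log2(scaled FPKM + 1), with Benjamini-Hochberg adjustment over all tested genes and calls at an adjusted p under 0.05. With 2 mice a group, this called 7.65% of tested genes, 4.65% higher and 3.00% lower in homozygotes. The p-values measure the spread between these mice only. Luminal prostate markers were present in every library, with a summed level of 11824 to 17025 scaled FPKM over 12 genes. Of 12 seminal vesicle markers, 3 held a value at the table's ceiling in at least 1 library and were not tested. The other 9 summed to 42713 in mouse 27 and 11082 in mouse 28 of the wild types. In homozygous mice 26 and 29 they summed to 4352 and 8185. All 9 had a log2 difference below 0, with a median of -7.07, and 6 of these 9 were called lower.

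One member, Steap4, rose in the homozygous prostate, and no other member passed the test in either direction. Steap4 RNA was 5.50-fold higher in homozygotes and made up most of the family's RNA there. The 3 other genes averaged lower in homozygotes: Steap1 by the most, at 49.0% of its wild-type level, and Steap2 and Steap3 by less. In all, 1 of 4 members was called, against a background of 7.65% of all genes.

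**Figure D1:**
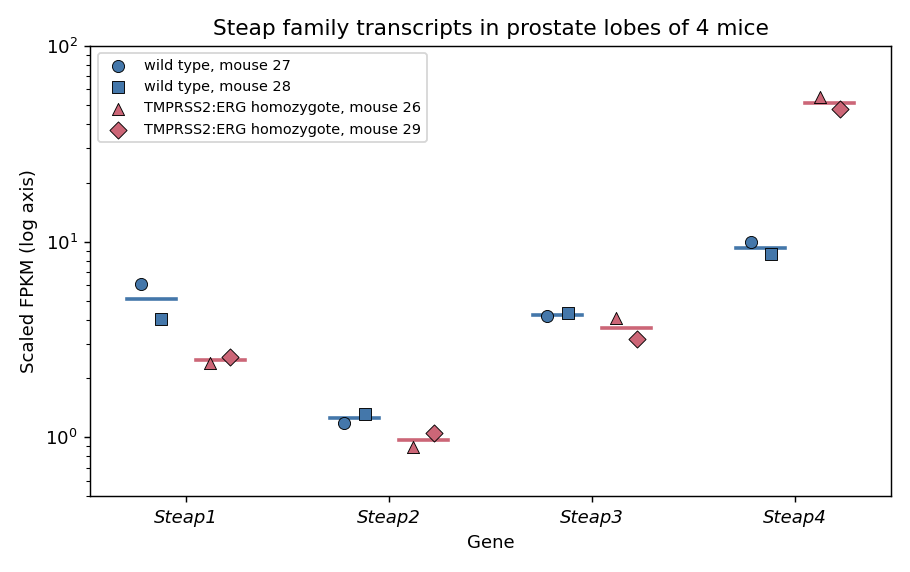
Scaled FPKM (log axis) of each Steap gene in each library (points, one per mouse) with the group mean (horizontal bar) for wild types and TMPRSS2:ERG homozygotes. Both homozygotes lie far above both wild types for Steap4, while for the other 3 genes both homozygotes lie below both wild types by smaller distances.

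Steap1, the member without its own oxidoreductase domain, had 6.10 scaled FPKM in wild-type mouse 27 and 4.02 in wild-type mouse 28, and 2.39 and 2.57 in homozygous mice 26 and 29. The homozygotes were close to each other and below both wild types, which were further apart. The means were 5.06 ± 1.47 (SD, n = 2) in wild types and 2.48 ± 0.126 (SD, n = 2) in homozygotes. The log2 difference was -0.78 (SE 0.185; 95% interval, unadjusted, -1.24 to -0.32), with an adjusted p of 0.0703 in limma, so it did not pass the test. Without mouse 27 the difference was -0.53 with an adjusted p of 0.0283, and without mouse 28 it was -1.03 with an adjusted p of 0.00297. Over all tested genes, the same omissions took the number of calls from 900 to 2028 and 1630, so more calls with a wild-type mouse left out are not particular to Steap1. Mouse 27, the higher of the wild types in Steap1, was also the highest library in the seminal vesicle markers, and their part in the Steap1 values was not tested. The authors' deposited table gives a log2 change of -0.92 and a q-value of 0.0592 for Steap1.

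Groups that do not overlap are common in a comparison of this size. Of all tested genes, 51.1% had both homozygotes on one side of both wild types, and all 4 Steap genes did so. That arrangement is therefore no result about the family.

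Steap2, an iron and copper reductase of endosomal and secretory membranes, was the scarcest member. It had 1.18 and 1.32 scaled FPKM in the wild types and 0.891 and 1.05 in homozygous mice 26 and 29, so that every library lay near the filter of 1. The log2 difference was -0.19 (SE 0.127; interval -0.51 to 0.12), with an adjusted p of 0.475 in limma. The interval covers no difference and a decrease of up to 0.51 (a bound of -0.51).

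Steap3, the endosomal ferric reductase and also a known p53 target, had 4.17 and 4.31 scaled FPKM in the wild types. It had 4.09 in homozygous mouse 26 and 3.19 in mouse 29. Mouse 26 lay just under the wild types and mouse 29 further below. The log2 difference was -0.18 (SE 0.136; interval -0.52 to 0.15), with an adjusted p of 0.530 in limma.

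Steap4, which reduces ferric and cupric ions and is known to respond to TNF and IL-6, had 9.94 and 8.67 scaled FPKM in wild-type mice 27 and 28. It had 55.1 and 47.4 in homozygous mice 26 and 29. The gap between the groups was several times the spread within either. The means were 9.31 ± 0.899 (SD, n = 2) and 51.2 ± 5.44 (SD, n = 2). The log2 difference was 2.34 (SE 0.128; interval 2.02 to 2.66), with an adjusted p of 0.000666 in limma. By size this was rank 66 among the rises of all 11762 tested genes, of which 4.65% were called higher. Steap4 stood at the 51.6th percentile of tested genes by level in wild types and at the 89.0th in homozygotes. Steap1 went from the 33.4th to the 16.7th percentile without passing the test.

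In the authors' deposited table, called at a q-value under 0.05, 14.2% of the 14374 genes with a q-value pass, and so does 1 of the 4 Steap genes. That gene is again Steap4, with a log2 change of 2.51 and a q-value listed at 0. The table gives Steap2 a log2 change of -0.33 with a q-value of 0.134, and Steap3 a change of -0.20 with a q-value of 0.801. Depth was not stated in the sources used here. An estimate from the most frequent step of low FPKM values puts roughly 158 to 320 fragments behind a Steap1 value and 1190 to 8350 behind a Steap4 value.

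**Figure D2:**
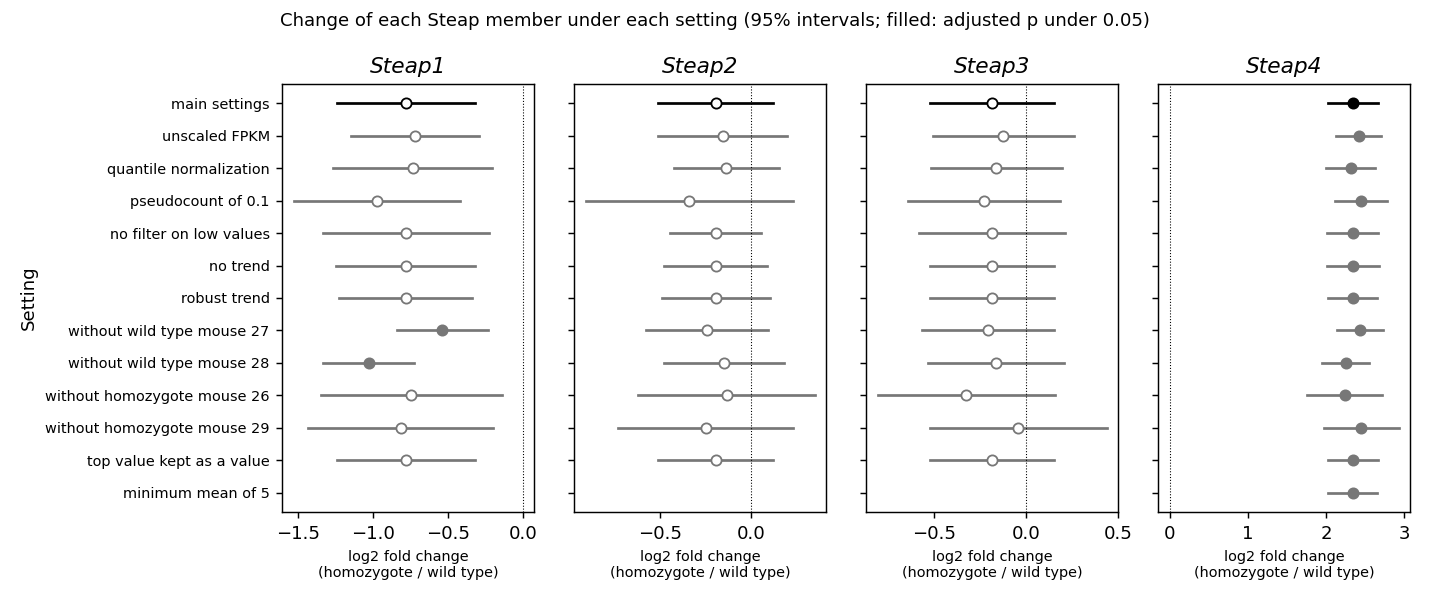
Log2 difference between homozygotes and wild types for each Steap gene under the analysis as reported and its limma alternatives (points, with unadjusted 95% intervals). Filled points passed the threshold of 0.05 after adjustment: Steap4 does so in every fit plotted, from 2.23 to 2.45, and Steap1 does so when either wild-type mouse is left out.

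The make-up of the family was compared next, as the share of its summed scaled FPKM. The sum of the 4 genes was 21.4 and 18.3 in wild types and 62.4 and 54.2 in homozygotes. Steap4 supplied 46.5% and 47.3% of that sum in wild types and 88.2% and 87.4% in homozygotes. Its mean share was 46.9 ± 0.581% against 87.8 ± 0.536% (SD, n = 2 each). Steap4 was therefore already the most abundant member in every wild-type library and supplied most Steap RNA in homozygotes. Without Steap4, the remaining sum was 11.4 and 9.66 in wild types and 7.37 and 6.80 in homozygotes. Bulk RNA gives these levels per tissue: fewer cells of a type and less RNA per cell cannot be told apart.

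**Figure D3:**
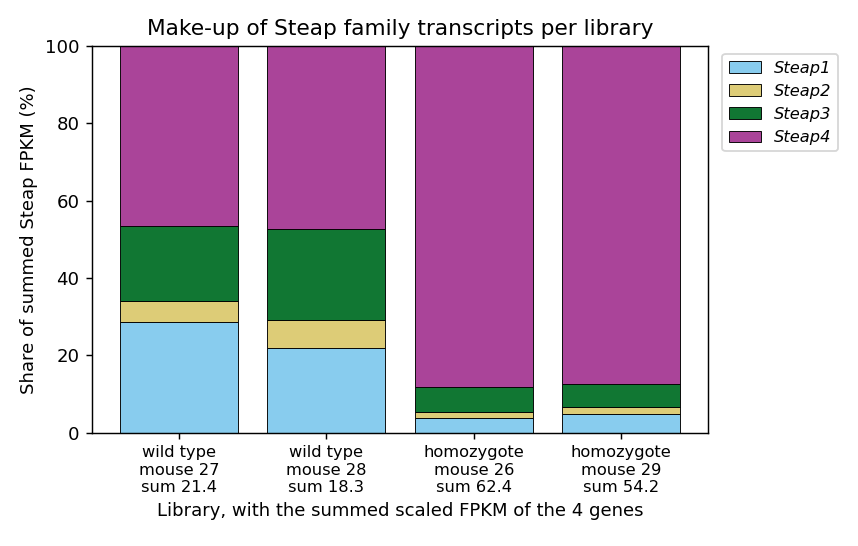
Percent of the summed Steap scaled FPKM that each of the 4 genes supplied in each library (stacked bars, one per mouse, from 0 to 100%). Steap4 fills 46.5% and 47.3% of the bar in wild types and 88.2% and 87.4% in homozygotes.

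The order of the levels hardly differed otherwise. In mouse 27 it ran Steap4, Steap1, Steap3, Steap2, and in the other 3 mice Steap4, Steap3, Steap1, Steap2. Steap1 and Steap3 exchanged places between the wild types and did not differ beyond their spread there. Steap2 was lowest in all 4 libraries. Within a library, the log2 ratio of Steap1 to Steap4 differed by -3.46 between the mean of homozygotes and that of wild types. For Steap2 to Steap4 the difference was -2.83 and for Steap3 to Steap4 it was -2.69. The ratio of Steap1 to Steap3 differed by -0.77 and that of Steap1 to Steap2 by -0.63. In these 5 pairs the groups did not overlap, which gives p = 0.3333 in a two-sided exact permutation test over the 6 arrangements of 4 mice, the smallest it allows, and 0.4 after adjustment over the 6 pairs. The ratio of Steap2 to Steap3 differed by -0.14, with overlapping groups and p = 1 in the same exact test.

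Genes next to the Steap genes were then examined within 500 kb. Of 20 other rows in those windows 11 were tested. Beside 7.65% called of all tested genes, 1 of these 11 was called. That gene was Cdk14, a cyclin-dependent kinase that acts in Wnt signalling, 285 kb from Steap2 and 356 kb from Steap1. Cdk14 had 1.84 and 2.21 scaled FPKM in wild types and 11.4 and 10.02 in homozygotes, a log2 difference of 1.95 (SE 0.127) with an adjusted p of 0.00117 in limma. It rose beside Steap1 and Steap2, which did not, and lies 2580 kb from Steap4. Sri, which encodes the calcium-binding protein sorcin and is the tested gene nearest to Steap4 at 63.9 kb, had 36.8 and 35.8 in wild types and 39.2 and 35.8 in homozygotes. Only Zfp804b and 4921511H03Rik lie between Steap1 and Steap4 in the table, and neither reached the level for testing.

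**Figure D4:**
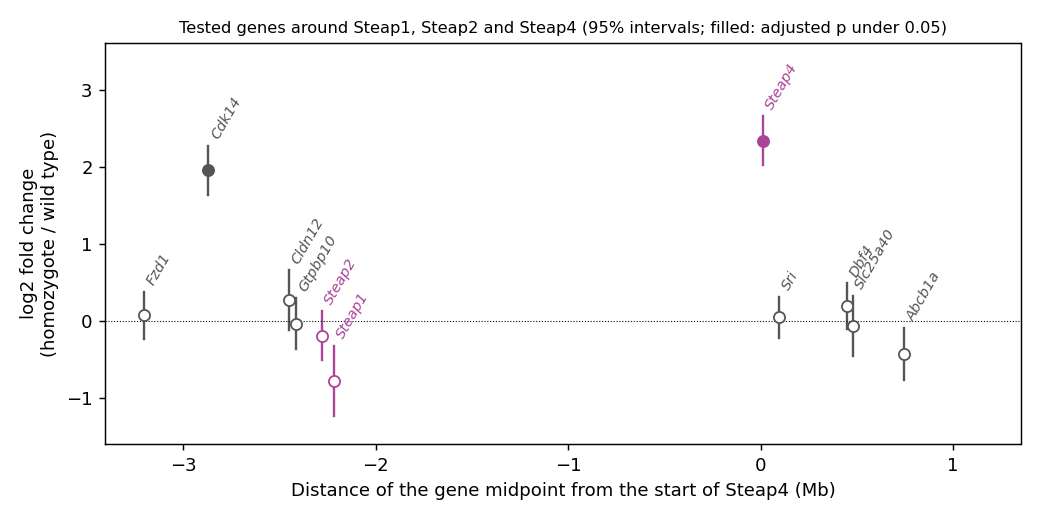
Log2 difference between homozygotes and wild types for tested genes of the Steap1, Steap2 and Steap4 neighbourhoods, plotted by the distance of the gene's midpoint from the Steap4 start in Mb, with unadjusted 95% intervals and filled points for genes that passed the threshold. Steap4 at 2.34 and Cdk14 at 1.95 stand above the other genes.

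To place each member among all tested genes, the 3 genes with the most similar profile over the 4 libraries were listed, by the Euclidean distance between log2 profiles centred on their means. For Steap4 these were Rtl1 (distance 0.204), a retrotransposon-derived imprinted gene, Casp4 (0.209), an inflammatory caspase, and 9930021D14Rik (0.211). Casp4 had 1.45 and 1.29 scaled FPKM in wild types and 10.1 and 8.88 in homozygotes. Rtl1 was nearly absent from wild types and had 3.81 and 3.32 in homozygotes, so its likeness to Steap4 lies on the log2(value + 1) scale and not in the ratio. For Steap1 the nearest were Nkain4 (0.0662), Tph1 (0.0787) and Des (0.1002), the muscle intermediate filament desmin. Steap2 was nearest to St6gal1, Fam98c and BC046331, and Steap3 to Plcxd2, Nudt11 and Cox18. With 4 libraries and small differences, many genes share such profiles.

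Other membrane reductases were taken as a list of 13 genes that includes the cytochrome b561 family and NADPH oxidases such as Cybb, Nox1 and Duox1. Of these 6 were tested and 0 were called by limma, with a median log2 difference of 0.02 against -0.00 over all tested genes. At an unadjusted p under 0.05 there was 1, Frrs1, a ferric-chelate reductase, which had 1.67 and 1.79 scaled FPKM in wild types and 2.64 and 3.19 in homozygotes. Its log2 difference was 0.52 (SE 0.128) with an adjusted p of 0.0795, and it passed under quantile normalization. The authors' table called 0 of the list.

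Among iron genes, the partners of Steap ferric reduction, 25 of 34 were tested, of which 3 rose and 0 fell, with a median of 0.05. That is 12.0% called, beside 7.65% of all tested genes. Those that rose were Lcn2, a secreted siderophore-binding protein, Cp, the ferroxidase ceruloplasmin, and Mcoln1, a lysosomal cation channel that releases iron. Lcn2 had 47.0 and 49.1 scaled FPKM in wild types and 290 and 261 in homozygotes, a difference of 2.49 with an adjusted p of 0.000516. Cp had 19.7 and 20.9 against 151 and 123, a difference of 2.69 with an adjusted p of 0.000558. Lcn2 and Cp are acute-phase genes as well. Mcoln1 differed by 0.51 and lost its call under 4 alternatives, among them without either homozygote. Tfrc, the transferrin receptor whose cargo Steap3 reduces, differed by -0.41 (adjusted p 0.140), and the iron exporter Slc40a1 by -0.62 (adjusted p 0.145), both by limma.

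Genes of heme handling, of interest because every Steap protein binds heme, gave 1 call among 17 tested of 19 in the table, or 5.88%. This was Alas2, an erythroid enzyme of heme synthesis, which fell by 0.78 on the log2 scale. Its adjusted p was 0.0476 in limma (SE 0.161), and it lost its call under 6 alternatives. Copper handling gave 1 call among 18 tested of 20, or 5.56%. It was Pam, a copper-dependent peptide-amidating enzyme, which rose by 0.98 (SE 0.161, adjusted p 0.0244 in limma). Without mouse 26 Pam differed by 0.80. Its call was lost there and with no filter on low values. Of all tested genes 7.65% were called, 3.00% as lower, and the heme and copper shares were no higher than 7.65%. NADPH supply, the electron source of Steap2, Steap3 and Steap4, gave 3 calls among 12 tested of 12, or 25%, all lower. They were Txnrd1 at -0.60, a consumer of NADPH, G6pdx at -0.53, the entry enzyme of the pentose phosphate pathway, and Nnt at -0.51, the mitochondrial transhydrogenase. Each of these 3 calls was lost on unscaled FPKM, without mouse 26 and without mouse 29.

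Steap4 is known as a target of inflammatory signals. The list for TNF, IL-6 and NF-kB gave 4 rises and 0 falls among 19 tested of 24, with a median of 0.18. That is 21.1% called, beside 7.65% of all tested genes. Bcl3, a nuclear NF-kB cofactor, had 1.61 and 2.27 scaled FPKM in wild types and 11.6 and 10.5 in homozygotes, a difference of 2.04 with an adjusted p of 0.00165. Tnfrsf1a, a TNF receptor, rose by 0.85, Relb, an NF-kB subunit, by 0.65, and Nfkbia, an NF-kB inhibitor, by 0.49. Without mouse 26, as without mouse 29, these last 3 lost their calls. The ligands themselves were too low for testing: Tnf was at 0.117 and 0.0375 in wild types and 0.490 and 0.741 in homozygotes, and Il6 was at 0 in 3 libraries and 0.0215 in mouse 26.

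Acute-phase genes gave 7 rises and 1 fall among 13 tested of 15, or 61.5%, with a median of 1.53. Of all tested genes 7.65% were called. The list was chosen with earlier results of these data known, so its share is no independent result. Beside Lcn2 and Cp, Lrg1, a secreted glycoprotein, rose by 2.91 (adjusted p 0.00107) and Lbp, the lipopolysaccharide-binding protein, by 1.76 (adjusted p 0.00184). The gene that fell was Pigr, the polymeric immunoglobulin receptor, at -0.999. The rise of Steap4, 2.34, lies within the span of these genes, which includes -0.999 and 2.91, so that is no result about Steap4.

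Human STEAP genes include androgen-responsive members, so androgen-responsive prostate genes were listed as well. Among 26 tested of 26, 1 rose and 6 fell, or 26.9% called beside 7.65% of all tested genes. The median was 0.00, with 13 genes above 0 and 13 below. Their summed scaled FPKM was 17886 and 15790 in wild-type mice 27 and 28. It was 43978 and 27445 in homozygous mice 26 and 29. A sum follows its most abundant genes, and the median of the list did not rise with it. Azgp1, a secreted zinc-binding glycoprotein, differed by -3.26 and the kallikrein Klk1b24 by -2.09. Tmprss2, whose locus is on the transgene, differed by -0.75, with an adjusted p of 0.0209, and lost that call on unscaled FPKM and without either homozygote. Spdef, an ETS factor of secretory epithelium, rose by 0.90, and by 0.83 without mouse 26, where it lost its call. Of 21 tested p53 target genes of 22, among which Steap3 is not counted, 1 was called, or 4.76%. That was Btg2 at -0.62, an antiproliferative gene, and it lost its call without either homozygote.

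**Figure D5:**
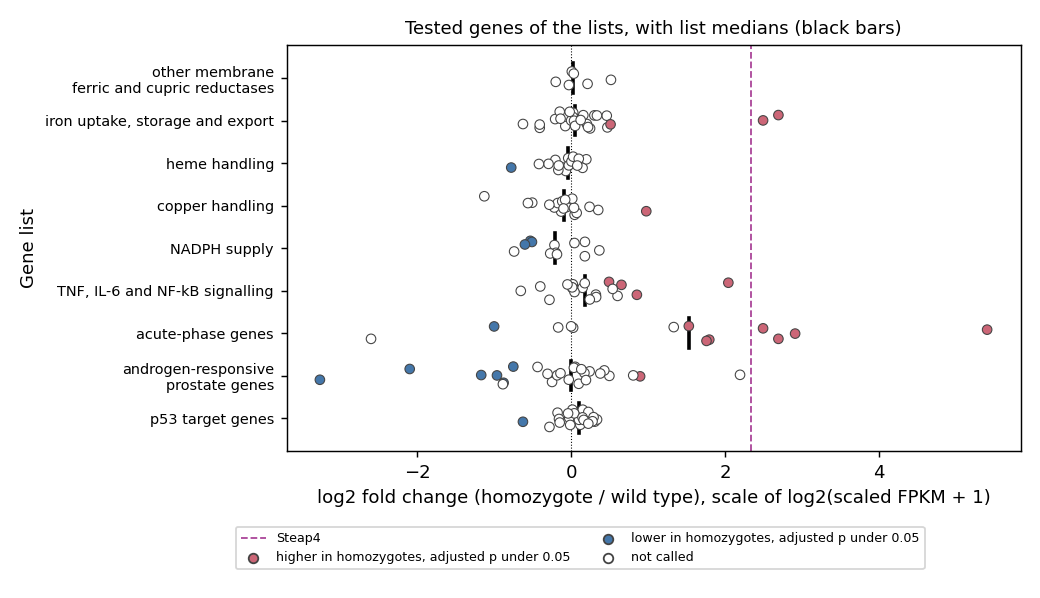
Log2 difference between homozygotes and wild types for the tested genes of each list (points; filled where the threshold was passed) with the list's median (vertical bar) and the value of Steap4 (dashed line). Acute-phase genes have the highest median, 1.53, and contain values on both sides of that of Steap4, while the other membrane reductases lie around 0.

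Cell-type markers also differed between the groups, some higher and some lower in homozygotes. Mast cell markers summed to 56.5 and 64.3 scaled FPKM in wild types and 341 and 282 in homozygotes. Of the 8 tested, 6 were called higher, where 4.65% of all tested genes were. With 2 mice a group, any gene called higher is high in the same libraries as Steap4, so that shared pattern is no result about Steap4. Macrophage markers summed to 142 and 91.6 against 172 and 149. Of 12 macrophage genes 2 rose, Cd14 by 1.64 and Fcgr3 by 1.72, while the defining receptor Csf1r differed by -0.02. Adipocyte markers, which matter because fat is a known site of Steap4 expression, summed to 410 and 281 in wild types and 317 and 254 in homozygotes, with 0 of 10 called by limma, 0 at an unadjusted p under 0.05 and 1 in the authors' deposited table. Neutrophil markers stayed between 5.79 and 9.52 in all libraries, with Camp, a granule gene, at 0 in each. Hepatocyte markers, which bear on the acute-phase genes, summed to 25.1 and 22.2 in wild types and 19.5 and 16.7 in homozygotes, with 1 of 8 tested. Smooth muscle markers summed to 3128 and 2177 in wild types and 1572 and 1853 in homozygotes. All 10 had a log2 difference below 0, as did all 10 endothelial and 9 of 10 adipocyte markers. Any gene lower in both homozygotes is low where Steap1 was low, so that is no result about Steap1. None of the 10 smooth muscle markers was called by limma, 7 had an unadjusted p under 0.05 and 1 passed in the authors' deposited table. Erythroid markers summed to 687 and 510 against 352 and 295. Of 7 urothelial markers 6 had a log2 difference below 0, 1 was called lower by limma and 6 passed in the authors' deposited table. Among 10 basal epithelial markers 8 were above 0 and 1 was called higher. Of 10 fibroblast markers 7 were below 0 and 1 was called lower. The part of any of these cell types, or of seminal vesicle or red cell RNA, in the Steap and acute-phase differences was not tested.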

How the data were processed

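The authors deposited 1 table of FPKM per gene for the 4 libraries, with their own log2 change, p-value and q-value. TopHat 1.3, Cufflinks 1.3 and mm10 are named in the submitters' processing notes. The column headers of the deposited table name no unit: the values are not whole numbers and were read as FPKM, the unit that Cufflinks writes. Values of 99999, which stand at the top of the table, were treated as missing. FPKM was divided by median-of-ratios factors, and genes averaging at least 1 were tested with limma 3.58.1 (R 4.3.3, trended prior, residual df 2, prior df 3.625) on log2(scaled FPKM + 1), checked on simulated data. The fold column of the deposited table was read as log2 from its size beside the FPKM ratios. Alternatives changed the scaling, pseudocount (0.1), filter and prior, or left out 1 mouse. Within each list up to 4 called genes are named, by the size of the limma statistic. Members and lists were chosen with earlier results of these data known. Promoters came from RefSeq GRCm38.p6 and gene models from GENCODE M21.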

Additional observations from a re-analysis of the deposited data

How the results depend on the processing

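Steap4 stayed called and higher under every alternative run, from 2.23 to 2.45 in limma and at 2.51 in the authors' table, and Steap2 and Steap3 stayed uncalled and lower. Steap1 ranged from -1.03 to -0.53 when 1 mouse was left out. With 1 mouse left out a group holds 1 mouse, assumed to vary like the other group. The 900 called genes became 355 to 2028, and the authors' call gives 2034. Called Steap genes ranged from 1 to 2, the second being Steap1. Counts of called genes in the lists ranged, with 1 mouse left out, from 2 to 6 for iron, 0 to 2 for heme, 0 to 4 for copper, 0 to 4 for NADPH, 1 to 7 for TNF and NF-kB, 3 to 10 for androgen-responsive and 0 to 4 for p53 genes. Unscaled values gave 0 for heme, NADPH and p53. Quantile normalization gave 1 for membrane reductases and 0 for heme. No filter gave 0 for heme and copper, 1 for NADPH and 4 for androgen-responsive genes. No trend gave 0 for heme and 1 for NADPH. The authors' calls gave 2 for copper, 7 for TNF and NF-kB and 3 for p53. A window of 200 kb held 0 called neighbours. Signs reversed only in uncalled neighbours. Gtpbp10, at -0.04 as reported, was 0.029 unscaled, 0.0124 in the authors' table and -0.167 to 0.0923 with 1 mouse left out. With 1 mouse left out, Ptpn4 ranged from -0.119 to 0.167, Tmem177 from -0.030 to 0.124, 3110009E18Rik from -0.0301 to 0.149, Sri from -0.0151 to 0.109 and Slc25a40 from -0.241 to 0.117, and with quantile normalization Sri was -0.000562. The cause was not tested for any of these. Keeping the table's top value as a value, an alternative chosen after seeing the data, changed no Steap call. A minimum mean of 5 leaves Steap4 alone among the members. No paired analysis was possible because the mouse numbers are not shared between genotypes.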
